A study of Mus musculus with 18 samples.

Results

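The genes that macrophages use to recognise and swallow dying cells were followed in bone marrow-derived macrophages (BMDM-s), macrophages grown from bone marrow. The members were chosen by gene name, and all 9 of them (Mertk, Axl, Gas6, Pros1, Mfge8, Itgav, Itgb3, Itgb5 and Elmo1) were found in the count table, which lists 31053 genes, each under 1 identifier. All 9 passed the filter on low counts, which left 12290 genes to be tested. Cells were taken from 6 mice of 12 weeks on the C57Bl/6J background, of which 3 lacked Slc7a7 in the myeloid lineage (Slc7a7 LysM-/-, knockout) and 3 were the controls of that line (Slc7a7 LysM+/+, wild type). The Cre recombinase that deletes Slc7a7 is driven by the Lyz2 (LysM) locus, which is active in the myeloid lineage, so the deletion is not confined to macrophages in the animal. Marrow cells were cultured for 7 days with macrophage growth factor, and cells of each mouse were then kept for 24 h in control medium with vehicle, with acetylated LDL (Ac-LDL, 50 µg/mL) or with oxidized LDL (Ox-LDL, 100 µg/mL). This gave 18 libraries in 6 groups of 3 mice, and the 3 media were applied to cells of the same mice within a genotype. The 2 modified LDLs were given at different doses, so their effects are set side by side and not compared with each other.

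Efferocytosis is the engulfment of apoptotic cells. A dying cell exposes phosphatidylserine on its surface, and soluble bridging proteins bind this lipid and link it to receptors on the phagocyte. Gas6 and protein S (Pros1) bridge to the TAM receptor tyrosine kinases Tyro3, Axl and Mertk, whereas MFG-E8 (Mfge8) bridges to the integrins αvβ3 and αvβ5, made of the αv chain (Itgav) paired with β3 (Itgb3) or β5 (Itgb5). Engaged receptors signal through the scaffold ELMO1 (Elmo1) and its partner DOCK1 to the small GTPase Rac, which drives the cup that closes round the target. In atherosclerotic plaques this clearance is known to limit the build-up of dead cells and the necrotic core.

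Expression is given in counts per 1000000 (CPM), the counts of a gene relative to the library's scaled total. Totals lay between 1043492 and 1768816 counts per library with a median of 1466145, so 1 CPM was worth between 1 and 2 counts. Slc7a7 itself, at 14.9 ± 5.41 CPM in wild type and 6.58 ± 3.20 CPM in knockout control cells (SD, n = 3), was lower in the knockout in each medium, with no overlap between genotypes. Its change over counts summed per mouse was -1.803 on the log2 scale (edgeR quasi-likelihood test, adjusted p = 0.0112). In a single medium it passed the test with Ac-LDL (-2.89, adjusted p = 0.000472 by edgeR) but not in control medium (-1.18, adjusted p = 1) or with Ox-LDL (-1.50, adjusted p = 0.276). All 8 macrophage marker genes were detected in every group, with summed levels of 21200 to 36000 CPM in wild type and 12700 to 21500 CPM in knockout libraries, where Lyz2 was lower (10900 ± 951 against 25500 ± 5070 CPM with Ac-LDL). Lyz2 made up most of each sum, at a mean of 24200 CPM in wild type and 13200 CPM in knockout control cells. The Lyz2 locus is also the one that drives the Cre recombinase, and the part of this in the Lyz2 level was not tested. For the other markers, means in control cells are given for wild type and then knockout. In the same order Csf1r was at 2520 and 2710 CPM, Adgre1 at 1770 and 1870, Itgam at 710 and 746 and Cd14 at 393 and 509. Fcgr1 was at 37 and 41.8 CPM, Cd68 at 583 and 572 and Spi1 at 272 and 242. Over both genotypes 3 of these 8 genes fell with Ox-LDL, among them Adgre1 (-0.57, adjusted p = 0.0329 by edgeR) and Cd14 (-1.10, adjusted p = 0.00389), and 1 fell with Ac-LDL, with a median change over the 8 of -0.42 and -0.18. In the knockout the macrophage sum was 18200 to 21500 CPM in control medium and 12700 to 14700 CPM with Ox-LDL. There Lyz2 went from a mean of 13200 to 8970 CPM, Csf1r from 2710 to 1910, Adgre1 from 1870 to 1220, Cd14 from 509 to 240 and Spi1 from 242 to 171. Itgam (746 to 688 CPM), Cd68 (572 to 559) and Fcgr1 (41.8 to 41.5) moved less. Stromal markers summed to at most 27.8 CPM and Lum was at 0 in every library. Neutrophil markers summed to between 25.5 and 252 CPM with Ly6g at 0 in every group, and were lower in the knockout than in the wild type with Ac-LDL (25.5 to 64.6 against 78.9 to 216 CPM) and with Ox-LDL (62.9 to 114 against 142 to 252 CPM). In wild type cells the neutrophil sum with Ox-LDL lay above that in control medium (72.9 to 126 CPM), while in the knockout it overlapped the control range of 52 to 141 CPM. The part of these cells and of the macrophage marker levels in the results below was not tested. In RNA from whole cultures, fewer cells that express a gene and less RNA of that gene per cell cannot be told apart.

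Ox-LDL raised the bridging molecule Gas6, its receptor Mertk and the integrin chain Itgb3 when both genotypes were averaged, and no member passed the test in the lower direction. Gas6 rose 1.8-fold, Mertk 1.47-fold and Itgb3 2.37-fold. The Gas6 call held in 12 of 12 fits that left out a library, that of Mertk in 2 and that of Itgb3 in 6, and Itgb3 was not called by DESeq2. These fits did not pair the libraries of a mouse. With mouse as a factor, in fits added after these data were seen, the counts were 12 for Gas6, 12 for Mertk and 6 for Itgb3. With Ac-LDL no member passed the test, although Mertk was higher in all 3 wild type mice and was called with mouse as a factor or without a filter on low counts. No member passed the test between genotypes in any medium. The TAM receptor Axl and the second TAM ligand, Pros1, did not pass it with either LDL.

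The promoters of Gas6 and Mertk, the ligand and the receptor that rose with Ox-LDL, are shown with that of Axl, the receptor that did not pass the test, to let the regions next to these genes be compared. Each is the 250 bases before the RefSeq transcription start (GRCm38.p6), written 5′ to 3′ on the gene's strand, and capitals mark every match to the GC box GGGCGG on either strand (CCGCCC on the strand shown). The Gas6 sequence lies at chr8:13494536-13494785 on the minus strand, the Mertk sequence at chr2:128698665-128698914 on the plus strand and the Axl sequence at chr7:25788734-25788983 on the minus strand.
Gas6: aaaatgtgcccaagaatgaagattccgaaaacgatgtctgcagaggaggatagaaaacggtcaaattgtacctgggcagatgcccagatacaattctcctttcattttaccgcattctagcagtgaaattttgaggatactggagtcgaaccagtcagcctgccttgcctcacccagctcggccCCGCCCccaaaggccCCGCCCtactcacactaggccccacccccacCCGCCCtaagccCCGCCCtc
Mertk: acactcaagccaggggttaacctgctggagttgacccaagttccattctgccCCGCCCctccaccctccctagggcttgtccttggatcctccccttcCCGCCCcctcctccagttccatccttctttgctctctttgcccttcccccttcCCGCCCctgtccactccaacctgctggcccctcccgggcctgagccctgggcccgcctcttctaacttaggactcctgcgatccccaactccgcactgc
Axl: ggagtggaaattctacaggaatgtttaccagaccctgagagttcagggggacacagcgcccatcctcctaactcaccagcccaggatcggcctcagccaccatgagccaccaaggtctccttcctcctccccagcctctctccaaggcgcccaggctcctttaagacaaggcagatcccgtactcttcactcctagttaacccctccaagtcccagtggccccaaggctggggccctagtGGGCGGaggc
The GC box matched 4 times in the Gas6 promoter, 3 times in that of Mertk and 1 time in that of Axl. Members that did not pass the test held it as often, with 5 matches for Pros1, 4 for Mfge8 and 3 each for Itgb5 and Elmo1. Promoter sequences were matched for 8 of the 9 members, all but Itgb3, with 2 promoters for Elmo1. The GC box was held by 7 of the 9 member promoters, those of all genes but Itgav and not the second of Elmo1, and by 32.7% of all 32851 promoters in the RefSeq table. The 7 were 54.8 to 65.2% G and C, beside a median of 52.4% over all promoters. The other 2 were at 64.4% (Itgav) and 43.6% (Elmo1). A motif of G and C alone is met more often in sequence rich in them, and promoters of like content were not compared. A further 2 motifs, read on both strands, were in none of the 9 member promoters. They were AGGTCA, the sequence bound by many nuclear receptors, which 14% of all promoters held, and the antioxidant response core TGACNNNGC, which 10.2% held. These matches describe letters in a short window and say nothing of which factors bind there or elsewhere at these genes.

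Members differed widely in level. Per kilobase of exon, the scale on which genes can be set against each other, Itgb5 was the highest at a mean of 80.8 CPM per kb over the 18 libraries, then Itgav at 38.0, Gas6 at 24.8, Axl at 19.9, Elmo1 at 18, Mertk at 14.7, Pros1 at 8.12, Mfge8 at 6.5 and Itgb3 at 0.895 CPM per kb. The ends of this order were clear: Itgb5 was above Itgav in 18 of 18 libraries and Mfge8 above Itgb3 in 18 of 18, without overlap of their ranges. Between them neighbours overlapped, and Axl was above Elmo1 in 10 of 18 libraries, Gas6 above Axl in 14 of 18 and Pros1 above Mfge8 in 13 of 18. Tyro3, the remaining TAM receptor, had at most 1 count in any library and was not tested. The exon length is that of all GENCODE transcripts merged, so genes with many long transcripts, such as Elmo1 with 12.58 kb, are placed low on this scale.

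**Figure D1:**
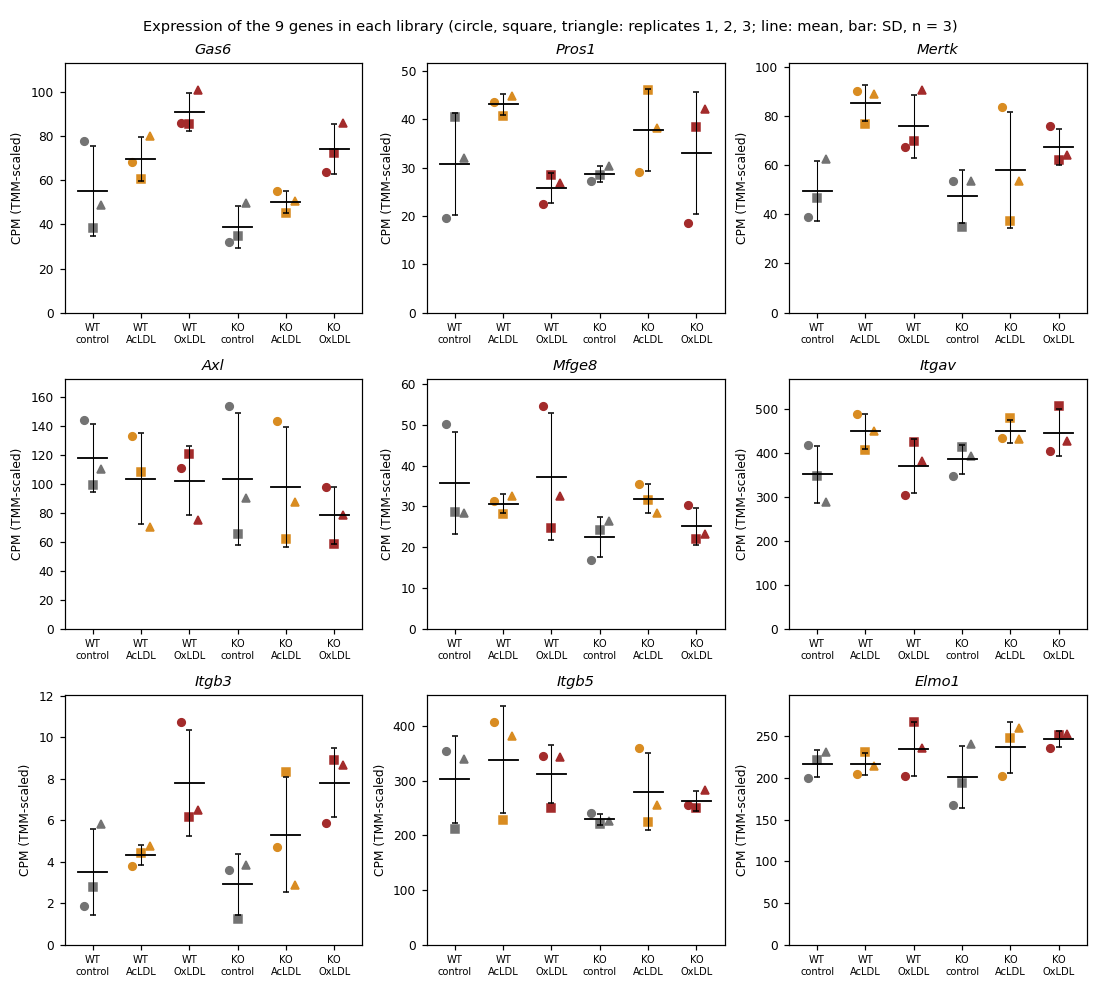
Expression of the 9 genes in CPM (vertical axis, from 0) in each library of the 6 groups (horizontal axis). Points are mice, lines group means and bars SD over n = 3, and Gas6 with Ox-LDL lies between 64.0 and 101 CPM against 32 to 78.0 CPM in control medium.

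Gas6 lies on chromosome 8 at 13465374 to 13494490 (GRCm38, minus strand) and encodes the vitamin K-dependent protein that activates all TAM receptors. In wild type control cells its levels were 78.0, 38.4 and 48.8 CPM in mice 1, 2 and 3, and with Ox-LDL they were 86.0, 85.8 and 101 CPM. In knockout control cells they were 32, 34.7 and 49.6 CPM, and with Ox-LDL 64.0, 72.5 and 86.1 CPM. Every Ox-LDL library lay above every control library of the same genotype, although wild type mouse 1 already had a high control level and moved least. In wild type mouse 1 the stromal markers summed to 0 CPM in control medium and to 27.8 CPM with Ox-LDL, the highest sum of the 18 libraries, and their part in its Gas6 level was not tested. The change was 0.95 on the log2 scale in the knockout (SE 0.211, edgeR quasi-likelihood test, adjusted p = 0.0122), where Gas6 was the only member called, against 2.32% of all genes tested. Libraries of the 2 media did not overlap for 4 of 9 members there (Gas6, Mertk, Itgb3 and Itgb5), against 21.6% of all genes, and 4 of 9 had an unadjusted p under 0.05, against 12.3%. In the wild type it was 0.75 (SE 0.206, adjusted p = 0.0793), and 0 of 9 members were called where 1.34% of all genes were, by edgeR as by DESeq2, with 3 of 9 at an unadjusted p under 0.05 (10% of all genes) and 3 of 9 without overlap of the media (11.8%). Over both genotypes, the rise was 0.85 (SE 0.147, adjusted p = 0.000499 by edgeR), and it was seen in 6 of 6 mice, by 0.14 to 1.13 within a mouse. This call held in 12 of 12 fits that left out a library, with adjusted p from 1.24e-05 to 0.00341, whereas that in the knockout alone was lost in 3 of 6 fits, without knockout control mouse 1 (adjusted p = 0.0915), without knockout control mouse 2 (0.073) and without knockout Ox-LDL mouse 3 (0.108). With mouse as a factor the wild type rise was also called (adjusted p = 0.00219 by edgeR). Tmem255b, which overlaps Gas6 on the other strand, had at most 1 count in any library.

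With Ac-LDL, Gas6 was at 68.3, 60.6 and 80.2 CPM in wild type and at 55.2, 45.0 and 50.5 CPM in knockout mice. These levels overlapped those in control medium in both genotypes. The change over both genotypes was 0.37 (SE 0.152, adjusted p = 0.306 by edgeR) and upward in 5 of 6 mice, and it was called in 1 of 12 fits that left out a library, that without wild type control mouse 1 (adjusted p = 0.0319). Pros1, the other TAM ligand, better known as an anticoagulant cofactor, had 19.5 to 40.5 CPM in wild type and 27.1 to 30.3 CPM in knockout control cells. With Ox-LDL it was 22.4 to 28.4 CPM in wild type and 18.5 to 42.2 CPM in knockout, overlapping the controls in each genotype, and its change over both was -0.01 (95% interval -0.39 to 0.37). With Ac-LDL it was higher in 6 of 6 mice, by a median of 0.40 within a mouse, but the change of 0.44 (SE 0.178) did not pass the test (adjusted p = 0.293 by edgeR). The ratio of Gas6 to Pros1 per kilobase within a library was higher in 5 of 6 mice with Ox-LDL, by a median of 0.98 on the log2 scale, and in 3 of 6 with Ac-LDL.

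Mertk, on chromosome 2 at 128698956 to 128802894 (plus strand), encodes the TAM receptor that is best known for the engulfment of apoptotic cells by macrophages. In wild type mice 1, 2 and 3 it had 39.0, 46.8 and 62.7 CPM in control medium, 67.2, 69.8 and 90.6 CPM with Ox-LDL, and 90.1, 76.8 and 89.1 CPM with Ac-LDL. In knockout mice it had 53.7, 34.7 and 53.5 CPM in control medium, 75.8, 62.3 and 64.2 CPM with Ox-LDL, and 83.5, 37.2 and 53.4 CPM with Ac-LDL. Ox-LDL libraries lay above the control libraries in both genotypes without overlap, while the Ac-LDL libraries did so in the wild type only and knockout mouse 1 stood apart from the other 2. Over both genotypes Ox-LDL raised Mertk by 0.56 (SE 0.164, adjusted p = 0.0461 by edgeR), upward in 6 of 6 mice by 0.26 to 0.82. In that comparison 3 of 9 members were called, all higher, against 5.39% of all genes called and 1.81% called higher, and 4 of 9 had an unadjusted p under 0.05, against 16.6%. The Mertk call sat close to the threshold: it held in 2 of 12 fits that left out a library, those without wild type control mouse 3 (adjusted p = 0.0246) and without wild type Ox-LDL mouse 1 (0.0339), and rose to 0.144 without knockout control mouse 2. With mouse as a factor the change was 0.57 with an adjusted p of 0.000468, and there it held in 12 of 12 such fits (0.000239 to 0.00462), a set of fits added after these data were seen.

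In a single genotype the Mertk change with Ox-LDL was 0.61 in wild type (SE 0.233, adjusted p = 0.308 by edgeR) and 0.51 in knockout (SE 0.231, adjusted p = 0.365), each called with mouse as a factor (adjusted p = 0.0203 and 0.0371). With Ac-LDL the change was 0.77 in wild type (SE 0.233, adjusted p = 0.214) and 0.27 in knockout (SE 0.233, adjusted p = 0.875). No member was called with Ac-LDL in wild type, where 0.472% of all genes were, in knockout (0.521%) or over both genotypes (2%), by edgeR or by DESeq2, and 2, 0 and 4 of 9 had an unadjusted p under 0.05, beside 7.33%, 7.53% and 11.8% of all genes. Libraries with Ac-LDL did not overlap the controls for Mertk and Pros1 in wild type (2 of 9, against 11% of all genes) and for Mfge8 and Itgav in knockout (2 of 9, against 16.7%). With mouse as a factor Mertk was called with Ac-LDL in wild type (adjusted p = 0.00369) and over both genotypes (0.52, adjusted p = 0.00304), and Itgav over both (0.29, adjusted p = 0.0166). Without that factor Mertk was called with Ac-LDL over both genotypes in 1 of 12 fits that left out a library, that without knockout Ac-LDL mouse 2 (adjusted p = 0.0273), and without a filter on low counts in wild type (0.00759) and over both (0.00699). The difference between genotypes in the Mertk response to Ac-LDL, knockout minus wild type, was -0.51 (95% interval -1.19 to 0.18, unadjusted p = 0.138 and adjusted p = 1 in edgeR), which did not pass the test.

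Axl, on chromosome 7 at 25757273 to 25788705 (minus strand), encodes the TAM receptor that binds Gas6 most tightly and is known for its induction in inflamed macrophages. It ranged from 99.1 to 144 CPM in wild type and from 65.6 to 154 CPM in knockout control cells, from 75.0 to 120 and 58.2 to 97.7 CPM with Ox-LDL, and from 70.0 to 133 and 62.2 to 143 CPM with Ac-LDL. The mice of a group were far apart and the media overlapped in both genotypes. Within a mouse Axl was lower in 5 of 6 mice with each LDL, by a median of -0.28 with Ox-LDL and -0.09 with Ac-LDL. The change over both genotypes was -0.31 with Ox-LDL (SE 0.209, adjusted p = 0.515 by edgeR, and 0.0613 with mouse as a factor) and -0.15 with Ac-LDL (SE 0.208, adjusted p = 0.867). With mouse as a factor Axl was called lower with Ox-LDL in 2 of 12 fits that left out a library, those without wild type control mouse 2 (adjusted p = 0.00643) and without wild type Ox-LDL mouse 2 (0.0109). The ratio of Mertk to Axl per kilobase, taken within a library so that scaling has no part in it, was higher in 6 of 6 mice with each LDL. It was 0.508 ± 0.177 in wild type control cells, 0.926 ± 0.413 with Ox-LDL and 1.03 ± 0.387 with Ac-LDL, and in knockout cells 0.569 ± 0.147, 1.03 ± 0.185 and 0.693 ± 0.0156 in the same order (SD, n = 3). Every Ox-LDL library had a higher ratio than every control library of its genotype. With Ac-LDL that held in the wild type, while in the knockout the lowest Ac-LDL ratio of 0.676 fell below the highest control ratio of 0.688.

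**Figure D2:**
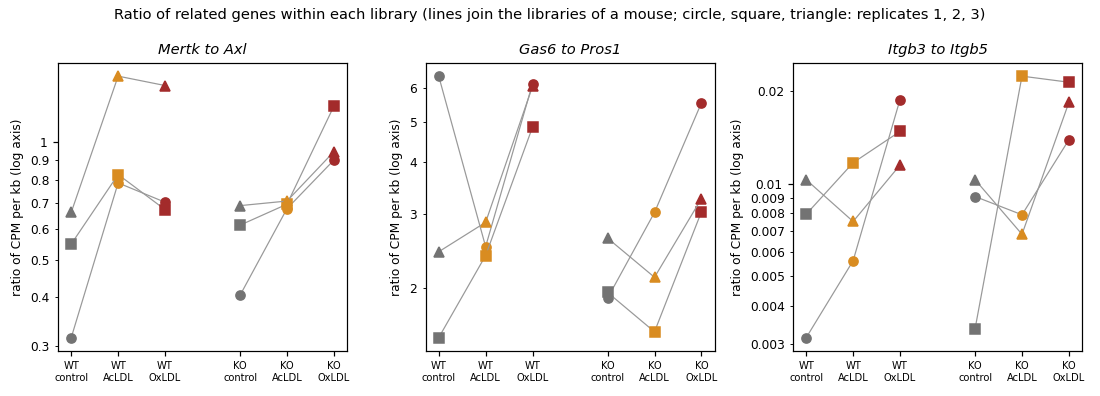
Ratios of related genes within each library, in CPM per kilobase of exon on a log axis, for Mertk to Axl, Gas6 to Pros1 and Itgb3 to Itgb5. Lines join the 3 libraries of a mouse, and the Mertk to Axl and Itgb3 to Itgb5 ratios were higher with Ox-LDL than in control medium in 6 of 6 mice.

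Mfge8 encodes the milk fat globule protein that ties phosphatidylserine to αv integrins. It was at 50.1, 28.6 and 28.4 CPM in wild type control cells and at 54.7, 24.7 and 32.6 CPM with Ox-LDL, with the high value from mouse 1 in both. In knockout cells it was at 16.9, 24.1 and 26.4 CPM in control medium and at 30.3, 21.9 and 23.1 CPM with Ox-LDL. It did not pass the test with either LDL: it was higher in 3 of 6 mice with Ox-LDL and in 4 of 6 with Ac-LDL, and its changes over both genotypes were 0.10 (95% interval -0.30 to 0.50) and 0.15 (-0.24 to 0.54).

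The integrin chains that take up MFG-E8 differed in level far more than in response. Itgav, with 351 ± 65.0 CPM in wild type and 385 ± 33.5 CPM in knockout control cells (SD, n = 3), was among the highest expressed genes, at percentile 97.9 of the genes tested. With Ac-LDL it was at 448 ± 40.4 and 448 ± 26.4 CPM and higher in 6 of 6 mice, a change of 0.29 over both genotypes (SE 0.105, adjusted p = 0.219 by edgeR) that was called with mouse as a factor only. The Itgav call held in 8 of 12 fits that kept the factor and left out a library (adjusted p up to 0.0967 by edgeR). These fits were added after the data were seen. With Ox-LDL its change was 0.15 (95% interval -0.07 to 0.36). Itgb5 stood at 302 ± 78.7 and 229 ± 9.90 CPM in control cells of the 2 genotypes and changed by 0.22 with Ac-LDL (-0.08 to 0.53) and 0.12 with Ox-LDL (-0.18 to 0.43), neither past the test.

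Itgb3, which pairs with αv in osteoclasts and in activated macrophages and with Itga2b in platelets, was the lowest expressed member, with 2 to 15 counts in a library. In wild type mice it was at 1.86, 2.79 and 5.83 CPM in control medium and at 10.8, 6.17 and 6.52 CPM with Ox-LDL, and in knockout mice at 3.62, 1.24 and 3.87 CPM and at 5.89, 8.89 and 8.67 CPM. Ox-LDL libraries lay above control libraries in both genotypes, the closest pair being 5.83 and 6.17 CPM in the wild type. The change was 1.07 in wild type (SE 0.503, adjusted p = 0.477 by edgeR), 1.42 in knockout (SE 0.493, adjusted p = 0.164) and 1.25 over both genotypes (SE 0.352, adjusted p = 0.0363), upward in 6 of 6 mice. DESeq2 gave an adjusted p of 0.0749 over both genotypes, and in edgeR the call held in 6 of 12 fits that left out a library. It was lost without wild type control mouse 1 or 2, wild type Ox-LDL mouse 1, knockout control mouse 2 or knockout Ox-LDL mouse 2 or 3, with adjusted p up to 0.105. Itgb3 remained far below Itgb5: its ratio to Itgb5 per kilobase was 0.00715 ± 0.00366 in wild type control cells and 0.0150 ± 0.00368 with Ox-LDL, and 0.00759 ± 0.00371 and 0.0179 ± 0.00379 in the knockout (SD, n = 3).

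Other cell types that carry Itgb3 were looked at through their markers. The 8 platelet and megakaryocyte genes summed to 12.6 to 22.3 CPM in wild type and 13.9 to 21 CPM in knockout control cells, and to 26.9 to 31.5 and 20.5 to 29.5 CPM with Ox-LDL. Nearly all of that sum was Pf4, which rose by 0.73 over both genotypes (adjusted p = 0.0186 by edgeR), while Gp9 was at 0 in every library and Itga2b, the platelet partner of Itgb3, never passed 3 counts. The 7 osteoclast genes summed to 127 to 157 and 142 to 146 CPM in control cells and were lower with Ox-LDL, at 108 to 115 and 107 to 130 CPM. Most of that sum was Nfatc1, at a mean of 108 CPM in control cells of each genotype. With Ox-LDL Nfatc1 was at 96.1 CPM in wild type and 108 CPM in knockout cells. Among the 7 genes Dcstamp, needed for osteoclast fusion, fell by 2.10 on the log2 scale (adjusted p = 0.0081 by edgeR) and Oscar was at 0 in every library. The part of platelet RNA in the Itgb3 result was not tested.

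Elmo1, the engulfment scaffold, had group means from 201 ± 37.2 CPM in knockout control cells to 247 ± 9.52 CPM in knockout cells with Ox-LDL (SD, n = 3). With Ox-LDL it was higher in 6 of 6 mice, by 0.02 to 0.49, and its change of 0.21 over both genotypes (SE 0.0986) did not pass the test (adjusted p = 0.29 by edgeR) but did with mouse as a factor (0.0448). That call held in 5 of 12 fits that kept the factor and left out a library (adjusted p up to 0.185 by edgeR). These fits were added after the data were seen. The median change over the 9 members was 0.15 with Ox-LDL and 0.29 with Ac-LDL over both genotypes, beside 0.01 and -0.01 over all genes tested.

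**Figure D3:**
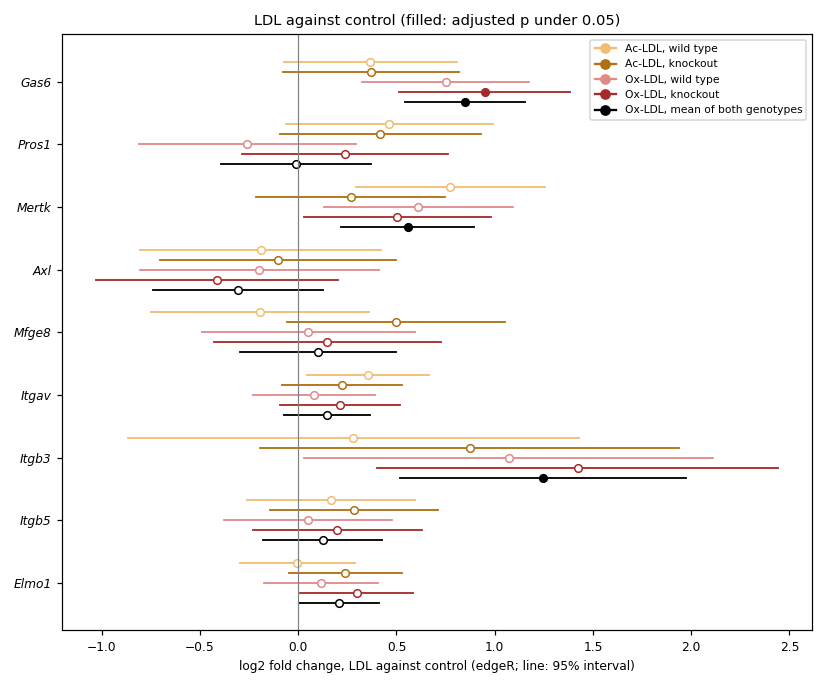
Log2 fold changes of the 9 genes with each LDL against control medium (horizontal axis) by genotype, and over both genotypes for Ox-LDL. Points are edgeR estimates, lines 95% intervals, and filled points passed an adjusted p of 0.05, which were Gas6, Mertk and Itgb3 over both genotypes and Gas6 in the knockout.

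The genotype comparison asked whether loss of Slc7a7 changed these genes. None was called in control medium (0.00814% of all genes were), with Ac-LDL (0.0163%), with Ox-LDL (0.00814%) or over counts summed per mouse (0.00789%), by edgeR or by DESeq2, and 2, 2, 0 and 1 of 9 members had an unadjusted p under 0.05, beside 4%, 4.89%, 4.78% and 4.14% of all genes. Slc7a7 itself was not called by edgeR in control medium (-1.18) or with Ox-LDL (-1.50). A missing call here therefore does not show that a gene is unchanged. The member nearest to a difference was Gas6. Its difference, knockout minus wild type, was -0.43 on the log2 scale over counts summed per mouse (SE 0.138, unadjusted p = 0.00877, adjusted p = 0.98 by edgeR), and -0.48 both in control medium (adjusted p = 1) and with Ac-LDL (adjusted p = 0.99), where every knockout library (45.0 to 55.2 CPM) lay below every wild type library (60.6 to 80.2 CPM). For Mfge8 the difference was -0.65 in control medium (SE 0.272, adjusted p = 1), with no overlap between genotypes, and -0.39 over summed counts (adjusted p = 0.98). Groups of 3 and 3 also failed to overlap for 9.28% of all genes in control medium, 10.4% with Ac-LDL and 9.56% over summed counts, and for 1 of 9 members in each. With Ox-LDL 0 of 9 members and 9.3% of all genes had no overlap. For Mertk with Ac-LDL it was -0.58 (SE 0.225, adjusted p = 0.99), with overlap. For the other members the summed-count differences were -0.20 for Axl (95% interval -0.71 to 0.32), 0.02 for Pros1 (-0.36 to 0.40), 0.12 for Itgav (-0.12 to 0.37), 0.03 for Itgb3 (-0.55 to 0.60), -0.31 for Itgb5 (-0.67 to 0.05) 0.02 for Elmo1 (-0.24 to 0.29) and -0.32 for Mertk (-0.67 to 0.04). The difference between genotypes in the response to an LDL did not pass the test for any member, with 0 of 9 called by edgeR or DESeq2 and 0 of 9 at an unadjusted p under 0.05 for both LDLs. In the main edgeR fit no gene of the 12290 was called (0%), and 2.66% with Ac-LDL and 2.75% with Ox-LDL had an unadjusted p under 0.05. DESeq2 called 1 gene with Ac-LDL and 0 with Ox-LDL, and edgeR with mouse as a factor called 5 and 0. For the Gas6 response to Ox-LDL the difference, knockout minus wild type, was 0.20 (95% interval -0.41 to 0.81).

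**Figure D4:**
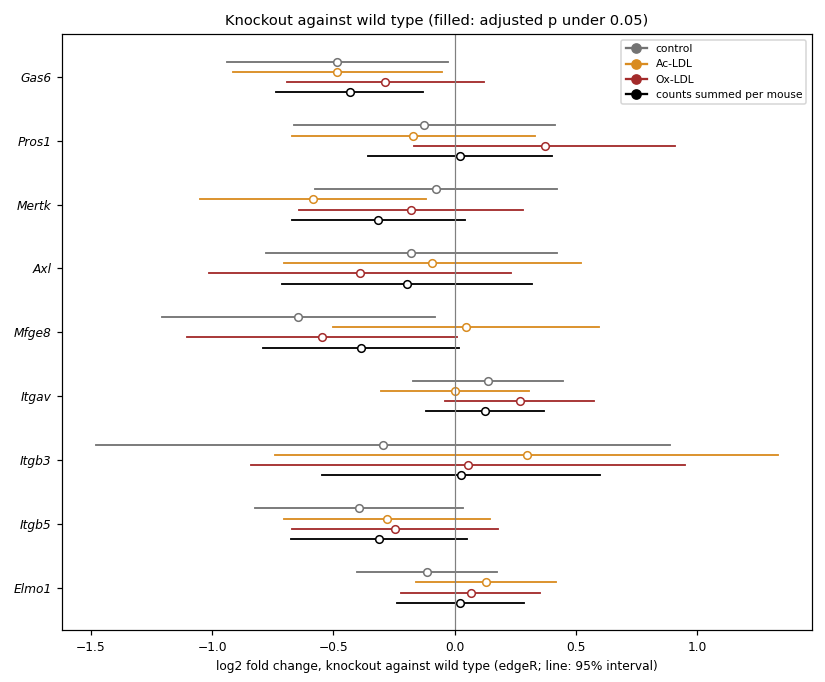
Log2 fold changes of the 9 genes in knockout against wild type cells (horizontal axis) in each medium and over counts summed per mouse. Points are edgeR estimates and lines 95% intervals, and no point is filled since none passed an adjusted p of 0.05.

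The rest of the efferocytosis pathway was read from 9 lists of genes, over both genotypes. Together 172 of their genes were tested, and 38 (22.1%) were called with Ox-LDL, 13 higher and 25 lower, beside 5.39% of all genes called, 1.81% higher and 3.57% lower. With Ac-LDL 17 (9.88%) were called, 6 higher and 11 lower, beside 2% of all genes. The lists were chosen with results of these libraries known, so these shares are a description. Of 14 tested genes for other bridging molecules and opsonins, 2 rose with Ox-LDL and 4 fell. Those that rose were Thbs1 (1.71), thrombospondin 1, which bridges to CD36 and αv integrins, and Edil3 (1.03), a relative of Mfge8 that binds the same integrins (adjusted p = 0.000868 and 0.000495 by edgeR). Those that fell were complement C3 (-1.91), C1qa (-0.68) and the annexins Anxa1 (-0.52) and Anxa5 (-0.35), of which C1qa was called in 8 of 12 fits without a library. C1qb and C1qc, at means of 291 and 290 CPM over the libraries beside 84 CPM for C1qa, were tested and not called. Of 16 tested genes for other apoptotic cell receptors, Cd36 (1.61) and Msr1 (0.68), which also take up modified LDL, rose, and Scarb1 (-0.78) and Cd14 (-1.10) fell, as did Fpr2, which had a mean of 1.74 CPM over the libraries, was called in 4 of 12 such fits and was not called by DESeq2 (adjusted p = 0.0867).

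Among 9 other integrin chains Itga9 (0.96) rose and Itga5 (-1.003), the fibronectin receptor chain, fell with Ox-LDL. Engulfment machinery moved both ways: of 31 tested genes, Vav3 (0.51) and Dock1 (0.43), the partner of Elmo1, rose, and Src (-1.58), Myo10 (-0.89), Rac2 (-0.51) and Dock5 (-0.50) fell. The calls of Dock1 and Itga9 each held in 5 of 12 fits without a library, with adjusted p up to 0.0893 and 0.167, and Itga9 was also not called by DESeq2, without a filter on low counts or with only the libraries compared.

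All calls among the 22 tested genes for receptor shedding, ligand exposure and brakes on uptake were decreases, 7 with Ox-LDL and 4 with Ac-LDL, and most calls over all genes were decreases too, 439 of 662 with Ox-LDL and 177 of 246 with Ac-LDL (1.44% of all genes). Adam17, the protease that cleaves Mertk from the cell surface, had 439 ± 107 CPM in wild type and 521 ± 28.5 CPM in knockout control cells and 239 ± 52.6 and 256 ± 8.61 CPM with Ox-LDL (SD, n = 3), with no overlap in either genotype. It fell by 0.95 with Ox-LDL (SE 0.124, adjusted p = 1.51e-05 by edgeR) and by 0.58 with Ac-LDL (SE 0.123, adjusted p = 0.00915), and by 0.87 and 1.03 in the separate genotypes with Ox-LDL (adjusted p = 0.00735 and 0.001). Rhbdf2, which carries ADAM17 to the surface, fell by 0.53 with Ox-LDL (adjusted p = 0.023) and by 0.68 with Ac-LDL (0.00839), the former in 7 of 12 fits without a library. The don't-eat-me ligand Cd47 (-0.46) and Pilra (-1.92) fell with Ox-LDL, and Siglece and Socs3, with means of 4.08 and 4.57 CPM over the libraries, with each LDL, Socs3 with Ac-LDL in 6 of 12 fits without a library (adjusted p up to 0.129). These are RNA levels, and cleavage of Mertk was not measured.

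Among 19 tested nuclear receptors and other factors linked to these genes, Nr1h3, which encodes the oxysterol receptor LXRα, fell by 0.88 with Ox-LDL (SE 0.141, adjusted p = 0.000205 by edgeR), from 45.3 ± 4.75 to 25.0 ± 4.77 CPM in wild type and from 44.2 ± 5.81 to 24.2 ± 3.32 CPM in knockout cells (SD, n = 3), and Egr2 fell by 1.61 (adjusted p = 0.0148, in 11 of 12 fits without a library). Of the 38 genes called in the 9 lists with Ox-LDL and the 17 with Ac-LDL, 29 and 12 were called in every alternative fit, and 0 genes of these lists were called between genotypes or in the difference of responses by edgeR.

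**Figure D5:**
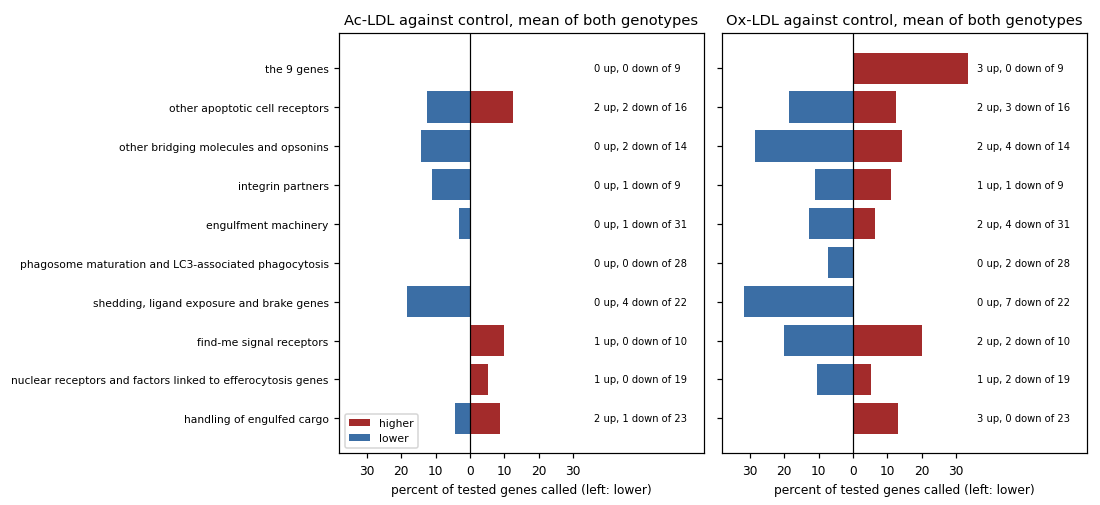
Share of tested genes called higher (right, red) or lower (left, blue) over both genotypes, in percent, for the 9 genes and 9 further lists of pathway genes, with Ac-LDL (left panel) and Ox-LDL (right panel). Counts are printed beside each bar, and shedding and brake genes were called in the lower direction only, 7 of 22 with Ox-LDL, beside 3.57% of all genes.

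Genes whose levels followed those of the 3 called members most closely were sought among 6746 genes above 20 CPM, by Pearson's r of log2 CPM over the 18 libraries, which share 6 mice and the same media. For Gas6 these were Cd33 (0.868), the lysosomal receptor Scarb2 (0.856) and S1pr1 (0.855), a receptor for the find-me lipid sphingosine 1-phosphate. For Mertk they were Tmem87b (0.857), Bmp2k (0.843) and Thbs1 (0.832), and for Itgb3, Dusp3 (0.748), Mylip (0.745) and Galnt4 (0.737).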

How the data were processed

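RNA-Seq was performed on BMDM-s of 3 wild type and 3 knockout mice in 3 media. Per the labels, libraries were made with a stranded total RNA kit, and the submitters' processing notes name STAR, Salmon and the mm10 build. According to the study's methods reads were trimmed, aligned with STAR and quantified per gene against an Ensembl transcriptome within an nf-core workflow, and the step that used Salmon and the strand setting are not given in the sources used here. The deposited values are estimated counts per gene, which were rounded to whole numbers here. The authors' table held 0 columns of other samples.

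Genes were tested with edgeR 4.0.16 (R 4.3.3) by the quasi-likelihood test after TMM scaling and a filter (minimum count 2, total 10), with all 18 libraries in 1 model of 6 groups and Benjamini-Hochberg adjustment over all genes tested, at a threshold of 0.05. Genotypes were also compared on counts summed per mouse (12673 genes tested). Over both genotypes means that the LDL effects of both were averaged. DESeq2 1.42.0, other scaling and filters, a fit with mouse as a block, and each library left out were tried as alternatives. Levels in CPM used TMM-scaled totals. Exon lengths came from GENCODE vM21 and promoters from RefSeq. Intervals are at 95% and rest on the spread between mice of a group in the main fit, which does not pair the libraries of a mouse. The SE and the intervals were derived from the log2 fold change and the F statistic of the test. The edgeR step was tested on simulated data for Ox-LDL against control in wild type (12033 genes), where 89 of 100 genes changed by 1 and 100 of 100 changed by 2 on the log2 scale were recovered, with 9 false calls. The changed genes were drawn only from genes with more counts than Itgb3, with the same spread for all genes and no mouse effect. The shares recovered therefore do not apply to Itgb3 or to genes that vary more between mice.

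The 9 genes were described individually, from the other lists up to 5 called genes per list and comparison above 5 CPM were named, and 3 similar genes were taken for each called member. Tyro3, Siglece, Socs3 and Fpr2, the marker genes and the genes overlapping a member were named outside this rule, after their values were seen, and some genes that the rule names are not reported here. The members and lists were chosen with earlier results of these data known. Libraries of the same mouse pair by the mouse identifiers in the labels, and their deviations from the group means correlated in 18 of 18 pairs (r 0.112 to 0.564 over 6754 genes). Mice of a group differed by more than sampling noise (chi-square per degree of freedom 2.03 to 12.7). Between genotypes replicate numbers carry no pairing.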

Additional observations from a re-analysis of the deposited data

How the results depend on the processing

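The rise of Gas6 with Ox-LDL over both genotypes passed the threshold under every alternative run. The number of members called changed as follows. With mouse as a replicate block, which pairs the libraries of a mouse, it was 1 with Ac-LDL in wild type, 2 with Ac-LDL over both genotypes, 2 with Ox-LDL in wild type, 2 with Ox-LDL in knockout and 4 with Ox-LDL over both, in place of 0, 0, 0, 1 and 3. Without a filter on low counts it was 1 with Ac-LDL in wild type and over both genotypes (Mertk) and 1 with Ox-LDL in wild type (Gas6). Leaving out a library gave 0 to 1 with Ox-LDL in wild type, 0 to 1 with Ox-LDL in knockout, 1 to 3 with Ox-LDL over both genotypes and 0 to 1 with Ac-LDL over both, or 1 to 3 for the last with the mouse block kept, a fit added after seeing the data. Over all genes, calls in the 6 LDL comparisons rose with the mouse block from 58 to 265 and 64 to 307 (Ac-LDL, wild type and knockout), 165 to 539 and 285 to 882 (Ox-LDL), and 246 to 719 and 662 to 1393 (over both). Without a filter they were 176, 188, 337, 491 and 438 in the first 5 of these, and with only the libraries compared 32, 198, 62 and 751 in the first 4. With scaling by library size alone the higher calls were 299 of 673 with Ox-LDL over both genotypes in place of 223 of 662, 96 of 239 with Ac-LDL over both in place of 69 of 246, and 108 of 274 with Ox-LDL in knockout in place of 81 of 285. Between genotypes, in control medium, with Ac-LDL, with Ox-LDL and over summed counts, 1, 2, 1 and 1 genes were called, against 3, 6, 1 and 5 by DESeq2, 28, 45, 34 and 73 without a filter and 4, 9, 1 and 2 with the replicate block by number, which changed no member's call. With only the libraries compared the first 3 were 0, 4 and 0. For the genotype difference in the response to Ac-LDL and to Ox-LDL, 0 and 0 genes were called. There DESeq2 called 1 and 0, the mouse block 5 and 0, no filter 18 and 15, and only the libraries compared 1 and 0. Of 108 member changes 39 changed sign in at least 1 alternative, with an unadjusted p of 0.179 or above in each. Pros1 with Ox-LDL over both genotypes was 0.0322 with scaling by library size alone, and 0.0929, 0.0707 and 0.0701 with the mouse block and without wild type control mouse 2, knockout control mouse 1 or knockout Ox-LDL mouse 1, while Mfge8 was -0.0384 with the block and without knockout control mouse 1. Without a library, and without the mouse block, the range was -0.1258 to 0.1235 for Pros1, -0.0739 to 0.2551 for Mfge8, -0.3286 to 0.0589 for Axl with Ac-LDL, -0.0641 to 0.5374 for Mertk with Ac-LDL in knockout and -0.1254 to 0.4134 for the genotype difference in the Gas6 response to Ox-LDL. Over counts summed per mouse it was -0.0752 to 0.1821 for Pros1, -0.0582 to 0.1117 for Elmo1, -0.0909 to 0.1121 for Itgb3 and -0.5405 to 0.0304 for Axl. Fits that leave out a library assume that all groups vary alike. The cause of these changes was not tested. Depth limits Itgb3 most, where 2 to 15 counts in a library leave wide intervals.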

Other observations

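Steps before and after the binding of a dying cell were also read over both genotypes. Of 10 tested genes for the release and receipt of find-me signals, Cx3cr1, the receptor for the chemokine fractalkine, fell by 2.09 on the log2 scale with Ox-LDL (adjusted p = 8.82e-10 by edgeR) and Gpr132, a receptor linked to lysophosphatidylcholine, fell by 1.38. S1pr1 rose by 0.78 with Ox-LDL and by 0.58 with Ac-LDL (adjusted p = 0.000325 and 0.0152), the latter in 10 of 12 fits without a library, and Panx1, the channel that releases nucleotides, rose by 0.9997 with Ox-LDL (0.00159). Of 28 tested genes of phagosome maturation and LC3-associated phagocytosis, Cybb, the catalytic chain of the phagocyte NADPH oxidase, fell by 0.99 with Ox-LDL (0.003) and Rab5b by 0.38 (0.0211, in 8 of 12 fits without a library), and 0 were called with Ac-LDL by edgeR.

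Of 23 tested genes that handle engulfed cargo, the cholesterol exporters Abca1 and Abcg1 rose with both LDLs, by 1.60 and 1.87 with Ox-LDL and by 1.72 and 1.65 with Ac-LDL (adjusted p from 3.47e-09 to 2.04e-06 by edgeR). Nceh1 rose by 0.29 with Ox-LDL (adjusted p = 0.0432, in 2 of 12 fits without a library), and Slc7a11, the cystine carrier, fell by 1.76 with Ac-LDL (0.025, in 7 of 12 fits).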
